A study of Mus musculus with 21 samples.

Results

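Short RPA peaks of high fold enrichment were found at 7 mouse loci: inside or near Cd163l1, Clec2e, Spon1, Shisa6, Vmn1r66, Acaca and Cldn18. A deposited peak was assigned to a locus when its summit lay inside the gene body or within 70 kb of it (mm10). By this rule the 7 loci held 26 of the 683 peaks of the 6 deposited lists. They held 5 of 56 peaks after the ATR inhibitor alone (ATRi), 7 of 65 after ATRi with aphidicolin (APH) for 9 h, 7 of 327 after ATRi+APH for 18 h, and 7 of 188 after ATRi with Timeless knockdown (ATRi+shTIM). The DMSO list (46 peaks) and the APH list (1 peak) held none. The loci were chosen by the fold and place of their peaks in these same lists, so folds, ranks, widths and places are given below as a description, without tests.

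The study mapped RPA on chromatin of passage-immortalized mouse embryonic fibroblasts labelled ATR+/-, in other words with 1 functional Atr allele, a genotype shared by every group and the DMSO controls. The treatments were DMSO for 18 h, 0.2 µM aphidicolin for 18 h, 1 µM of the ATR-45 inhibitor for 18 h, both drugs for 9 h or 18 h, and 1 µM of the inhibitor for 18 h in cells with Timeless knocked down by a short hairpin (labelled shTIM and TIM KD). There were 13 libraries precipitated with an antibody against RPA32 and 8 input libraries. Each treatment had 2 ChIP libraries, except for 3 with ATRi+APH 18 h, and the labels do not say whether they came from separate cultures. Each list pooled all libraries of its treatment, so there is no value per library, no spread between replicates and no error on any fold below, and read depth is unknown.

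RPA is the protein complex that coats single-stranded DNA, and RPA32 is one of its subunits. The kinase ATR is activated by RPA-coated DNA at slowed replication forks and keeps such forks from collapsing. Aphidicolin slows forks by inhibiting replicative DNA polymerases, and Timeless is a component of the fork protection complex that travels with the replisome. Enrichment of RPA over input chromatin is used as a mark of such DNA, and the study asked where in the genome this occurs when ATR is inhibited.

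The lists ended at different levels of significance. The lowest −log10 p was 10 in the DMSO list, 39.5 with APH, 29.9 with ATRi, 34 with ATRi+APH 9 h, 21.7 with ATRi+APH 18 h and 10.7 with ATRi+shTIM, so a locus that is not listed may still have signal. The median fold over all peaks of a list also differed, at 8.9 with ATRi, 17.8 with ATRi+APH 9 h, 9.89 with ATRi+APH 18 h and 10.1 with ATRi+shTIM. Fold is the authors' fold enrichment of ChIP against input at the peak's summit, and how its background level was set is not given. It is read here by its rank within its own list. Antibody lots differed too. ATRi+shTIM used a single lot for both libraries, ATRi and ATRi+APH 9 h used 2 lots each, and ATRi+APH 18 h used 3. The ATRi and ATRi+shTIM lists shared no lot, so lot and Timeless knockdown cannot be told apart between them. The part of lot, depth and threshold in the values below was not tested.

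Every locus had exactly 1 peak in each list that held it, and the peaks of different lists overlapped one another. Of the 7 loci, 5 were in all 4 ATR inhibitor lists and 2, Acaca and Cldn18, were in 3, being absent from the ATRi list. Over all 348 joined loci of these lists, 31 (8.91%) were in all 4, as were 17 of the 187 loci (9.09%) that were no wider than 350 bp in any list. The rule used these lists, so nothing is read from that contrast. The closest DMSO or APH peak to any locus lay 746 kb from the Clec2e peak, and neither list had a peak on chromosome 11, where Shisa6 and Acaca lie.

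The peaks lay inside 5 of the genes and outside 2. The farthest accepted summit was 62236 bp from its gene (Spon1), and the nearest peak of any list that the 70 kb limit left out lay 741 kb from Clec2e. The limit therefore divided no cluster of peaks. Over whole lists the summit was inside a protein-coding gene for 26.8% of ATRi peaks, 23.1% of ATRi+APH 9 h peaks, 29.4% of ATRi+APH 18 h peaks and 28.7% of ATRi+shTIM peaks, against 3 of 5 and, in the other lists, 5 of 7 of the member peaks. These genes were named in the rule, so that difference is fixed by the choice. None of the 26 peaks overlapped a RefSeq promoter window (250 bp before to 50 bp after an annotated start), against 9 of all 683 peaks. Such overlaps were rare in every case and windows were available for only 4 of the 7 genes, so nothing is read from that difference.

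**Figure D1:**
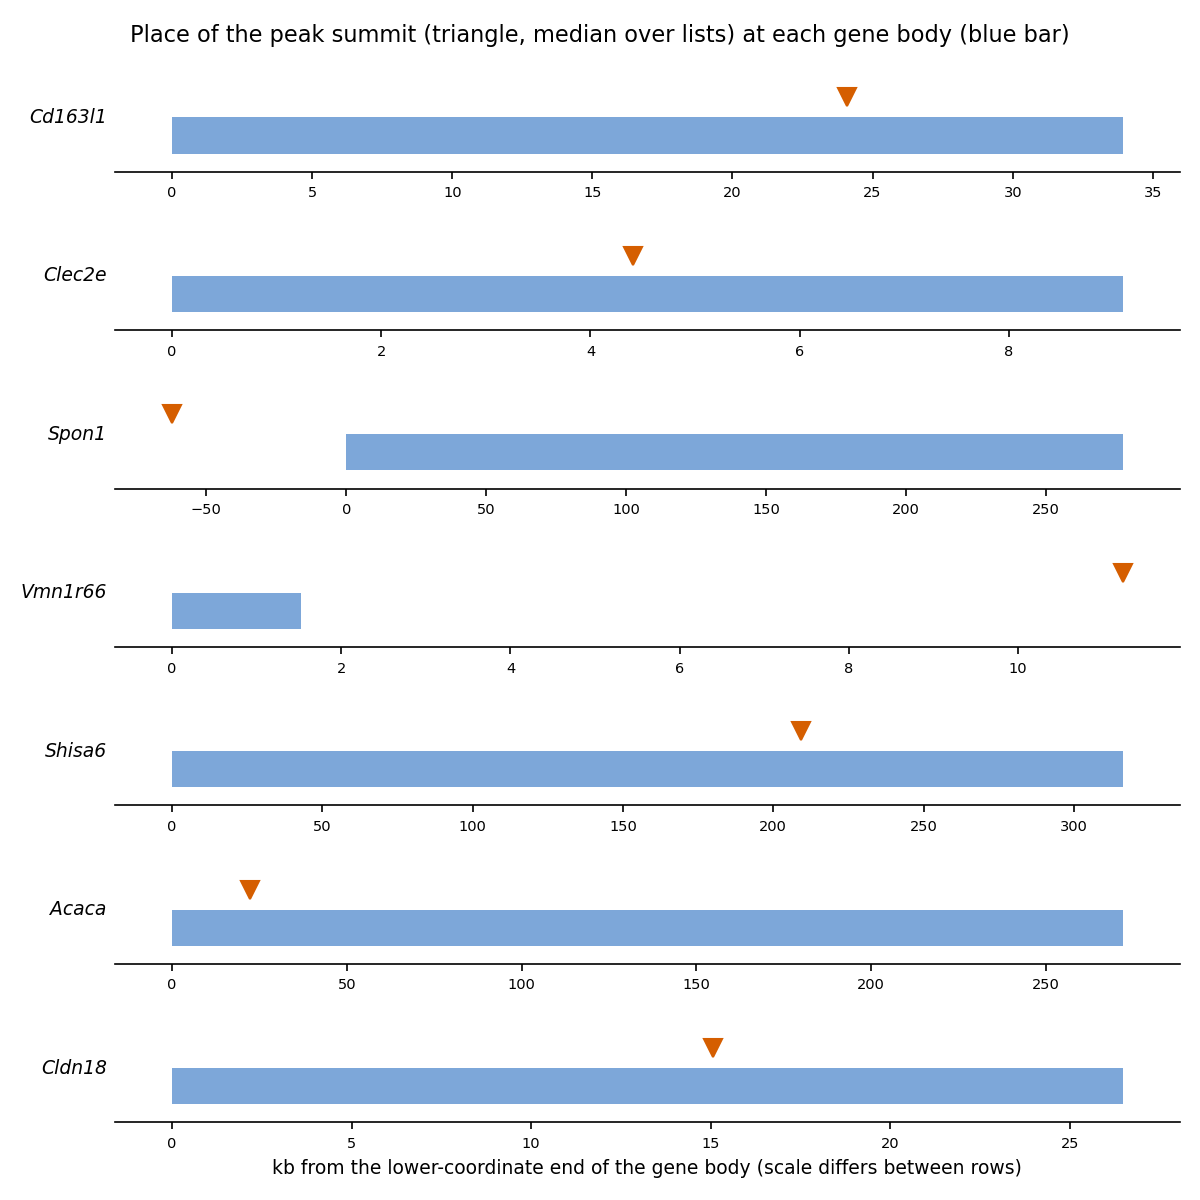
Place of the peak summit at each of the 7 loci. The x axis is the distance in kb from the lower-coordinate end of the gene body (scale differs between rows), the bar is the gene body and the triangle is the median summit over lists; 5 summits are inside their gene and those at Spon1 and Vmn1r66 are outside.

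Of the loci inside genes of immune receptors, Cd163l1 encodes a scavenger receptor cysteine-rich protein known from gamma-delta T cells. Its gene body spans chromosome 7 from 140197218 to 140231145, and the stretch covered in all 4 lists ran from 140221256 to 140221436, 71.1% of the way through the gene by the ATRi summit. The annotated start in the promoter table lay 3043 to 3074 bp upstream of the summits. That plus-strand start, at 140218267, was itself inside the gene body and not at its lower end. The fold was 14.1 with ATRi, 13.9 with ATRi+APH 9 h, 12.7 with ATRi+APH 18 h and 47.1 with ATRi+shTIM. These folds ranked 4 of 56, 48 of 65, 96 of 327 and 2 of 188 in their lists. By fold the site was thus among the strongest after the ATR inhibitor alone or with Timeless knockdown. It was below the list median (0.784 times it) after 9 h with aphidicolin. Its ranks by −log10 p were 3, 23, 69 and 2 in the same order of lists. Widths in the same order were 190, 195, 184 and 292 bp.

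Clec2e encodes a C-type lectin-like membrane protein of the natural killer gene complex. The gene occupies chromosome 6 from 129091816 to 129100903 on the minus strand, and all 4 lists shared the stretch from 129096077 to 129096289, near the middle of the gene. The summits lay 4664 to 4683 bp downstream of the annotated start. The fold was 8.25 with ATRi, 18.4 with ATRi+APH 9 h, 8.22 with ATRi+APH 18 h and 40.1 with ATRi+shTIM. The ranks were 34 of 56, 30 of 65, 204 of 327 and 5 of 188. High fold at Clec2e was therefore a feature of the ATRi+shTIM list, and in the other 3 lists the site stood between 0.83 and 1.04 times the list median. Its widths, 259, 213, 226 and 327 bp, included the widest of all 26 peaks.

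Spon1 encodes F-spondin, a secreted matrix protein with a role in axon guidance. Its peak lay 62.2 kb outside the gene body (chromosome 7, 113765998 to 114043375), on the lower-coordinate side, at 113703691 to 113703838. Spon1 was the nearest protein-coding gene, whereas the nearest annotated gene of any kind was a predicted lncRNA gene at 2329 bp. The fold was 12.2 with ATRi, 40.9 with ATRi+APH 9 h, 35.2 with ATRi+APH 18 h and 33.5 with ATRi+shTIM. Its ranks, 8 of 56, 3 of 65, 10 of 327 and 9 of 188, put this site among the 10 highest folds of each of the 4 lists. By −log10 p it ranked 14, 5, 16 and 13, which is among the 10 highest of the ATRi+APH 9 h list alone. Among peaks no wider than 350 bp it ranked 1 of 186 in the ATRi+APH 18 h list. The widths were 154, 152, 149 and 198 bp.

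Shisa6 encodes an auxiliary subunit of AMPA-type glutamate receptors and is the longest of the 7 genes, at 316260 bp (chromosome 11, 66211725 to 66527984). The stretch shared by all 4 lists, 66421056 to 66421228, lay 66.2% of the way through the gene body, counted from its lower coordinate. The fold was 8.75 with ATRi, 33.1 with ATRi+APH 9 h, 15.2 with ATRi+APH 18 h and 26.9 with ATRi+shTIM, ranking 32 of 56, 7 of 65, 69 of 327 and 19 of 188. By −log10 p the same peaks ranked higher in each list, at 11, 2, 28 and 9. With ATRi alone the fold was just under the list median (0.984 times it). The peaks were 183, 198, 189 and 234 bp wide.

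Vmn1r66 encodes a vomeronasal receptor of type 1, a family of pheromone receptors of the nose that lies in gene clusters. The gene body is short, at 1524 bp (chromosome 7, 10273828 to 10275351), and the shared stretch lay at 10285005 to 10285130, with summits 9708 to 9720 bp beyond its upper end. A pseudogene of the same family, Vmn1r-ps47, was closer, at 3327 bp from the median summit. The fold was 11 with ATRi, 48.4 with ATRi+APH 9 h, 17 with ATRi+APH 18 h and 26.9 with ATRi+shTIM. The site ranked 1 of 65 after 9 h with both drugs, both by fold and by −log10 p (145). It ranked 16 of 56, 59 of 327 and 20 of 188 by fold in the ATRi, ATRi+APH 18 h and ATRi+shTIM lists. By −log10 p it ranked 18, 32 and 15 in the same lists. Its widths were 156, 137, 126 and 228 bp.

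Acaca encodes acetyl-CoA carboxylase 1, which makes malonyl-CoA for fatty acid synthesis. Its peak was not in the ATRi list. In the other 3 it covered chromosome 11 from 84152007 to 84152117, 8.24 to 8.25% of the way through the gene body (84129635 to 84401651) and inside a predicted protein-coding gene that overlaps Acaca there. The annotated start of Acaca in the promoter table lay 43.4 kb beyond the summit, at 84195438, so the peak stood upstream of that start while still inside the gene body. The fold was 31.2 with ATRi+APH 9 h, 17.3 with ATRi+APH 18 h and 20.4 with ATRi+shTIM, ranking 10 of 65, 57 of 327 and 29 of 188. By −log10 p the same peaks ranked lower in each list, at 16, 67 and 41. In all 3 lists the fold was 1.75 to 2.02 times the list median. The peaks were 122 bp (9 h), 113 bp (18 h) and 201 bp (ATRi+shTIM) wide, and in both ATRi+APH lists this was the narrowest of the 7 loci.

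Cldn18 encodes a claudin, a tight junction protein of stomach and lung epithelium. Its peak was also missing from the ATRi list. The other 3 lists shared chromosome 9 from 99705772 to 99705924, inside the gene (99690796 to 99717267, minus strand), 4211 to 4213 bp downstream of the closer of its annotated starts. The fold was 41.4 with ATRi+APH 9 h, 6.7 with ATRi+APH 18 h and 16.4 with ATRi+shTIM. These values ranked 2 of 65, 248 of 327 and 42 of 188. By fold the same site was thus near the top of the 9 h list and below the median of the 18 h list (0.677 times it). Ranked by −log10 p it stood at 4 of 65, 131 of 327 and 34 of 188. Widths were 153, 156 and 219 bp.

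**Figure D2:**
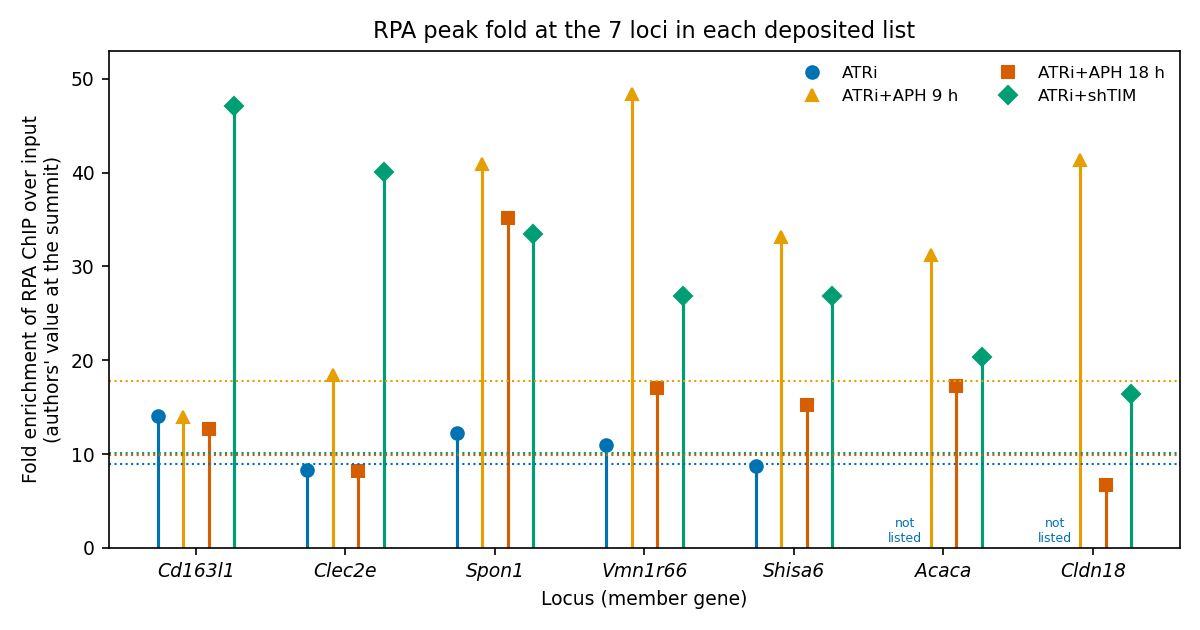
Authors' fold of RPA ChIP over input (y axis) for each of the 7 loci (x axis) in the 4 ATR inhibitor lists, with the median fold of all peaks of each list as a dotted line. Cd163l1 and Clec2e reach 47.1 and 40.1 with ATRi+shTIM, Vmn1r66 and Cldn18 reach 48.4 and 41.4 with ATRi+APH 9 h, and Acaca and Cldn18 are not in the ATRi list.

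Over all loci, 21 of the 26 peaks were above the median fold of their own list and 11 were among its 10 highest folds. The 11 were made up of 2 in the ATRi list (Cd163l1 and Spon1), 5 in the ATRi+APH 9 h list (Vmn1r66, Cldn18, Spon1, Shisa6 and Acaca), 1 in the ATRi+APH 18 h list (Spon1) and 3 in the ATRi+shTIM list (Cd163l1, Clec2e and Spon1). The 10 highest were taken from 56 peaks with ATRi, 65 with ATRi+APH 9 h, 327 with ATRi+APH 18 h and 188 with ATRi+shTIM. A limit of 10 peaks is a smaller share of a longer list. In any whole list as many peaks lie above the median as below it. The loci were chosen on these folds and each counts once per list that held it, so nothing is read from these counts. As a share of its list, the rank of Acaca was 15.4, 17.4 and 15.4% from the top with ATRi+APH 9 h, ATRi+APH 18 h and ATRi+shTIM, and Vmn1r66 was above the median in all 4 lists. Within the lists the folds of the 7 loci ran from 13.9 to 48.4 for ATRi+APH 9 h, from 6.7 to 35.2 for ATRi+APH 18 h and from 16.4 to 47.1 for ATRi+shTIM, and the 5 in the ATRi list ran from 8.25 to 14.1. No spread is available to say which neighbours in these orders differ. The −log10 p of the 26 peaks lay between 41.6 and 145, above the lowest value of every list.

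The peaks were short. Widths ran from 113 to 327 bp, with a median of 189.5 bp, and all 26 were no wider than 350 bp, a limit set after the widths were seen. Over whole lists 51.8% of ATRi peaks, 60% of ATRi+APH 9 h peaks, 56.9% of ATRi+APH 18 h peaks and 58% of ATRi+shTIM peaks were that narrow. The median width at the 7 loci was 183 bp with ATRi, 153 bp with ATRi+APH 9 h, 156 bp with ATRi+APH 18 h and 228 bp with ATRi+shTIM, beside 547, 243.5, 283.5 and 292 bp for the other peaks of the same lists. The strongest other peak was broad in 3 lists. It lay 8491 bp from Gata4, a transcription factor gene of heart and endoderm, in the ATRi list (2362 bp wide, 15.9-fold). With ATRi+APH 9 h it lay 27003 bp from Klf15, the gene of a zinc finger regulator (2183 bp, 39.3-fold). With ATRi+APH 18 h it lay 6104 bp from Gdf3, a gene of a TGF-beta family ligand (6317 bp, 51.6-fold). In the ATRi+shTIM list it was as short as the member peaks, at 229 bp and 48.9-fold, in a predicted gene.

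Narrow peaks took different shares of the strongest sites. Peaks no wider than 350 bp made up 7 of the 25 highest folds with ATRi, 14 with ATRi+APH 9 h, 4 with ATRi+APH 18 h and 18 with ATRi+shTIM. Of these, 3, 5, 1 and 5 were at the 7 loci. The ATRi+APH 18 h list thus had mostly broad peaks at its top, and the Spon1 site was the only one of the 7 loci among its 25 highest folds.

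**Figure D3:**
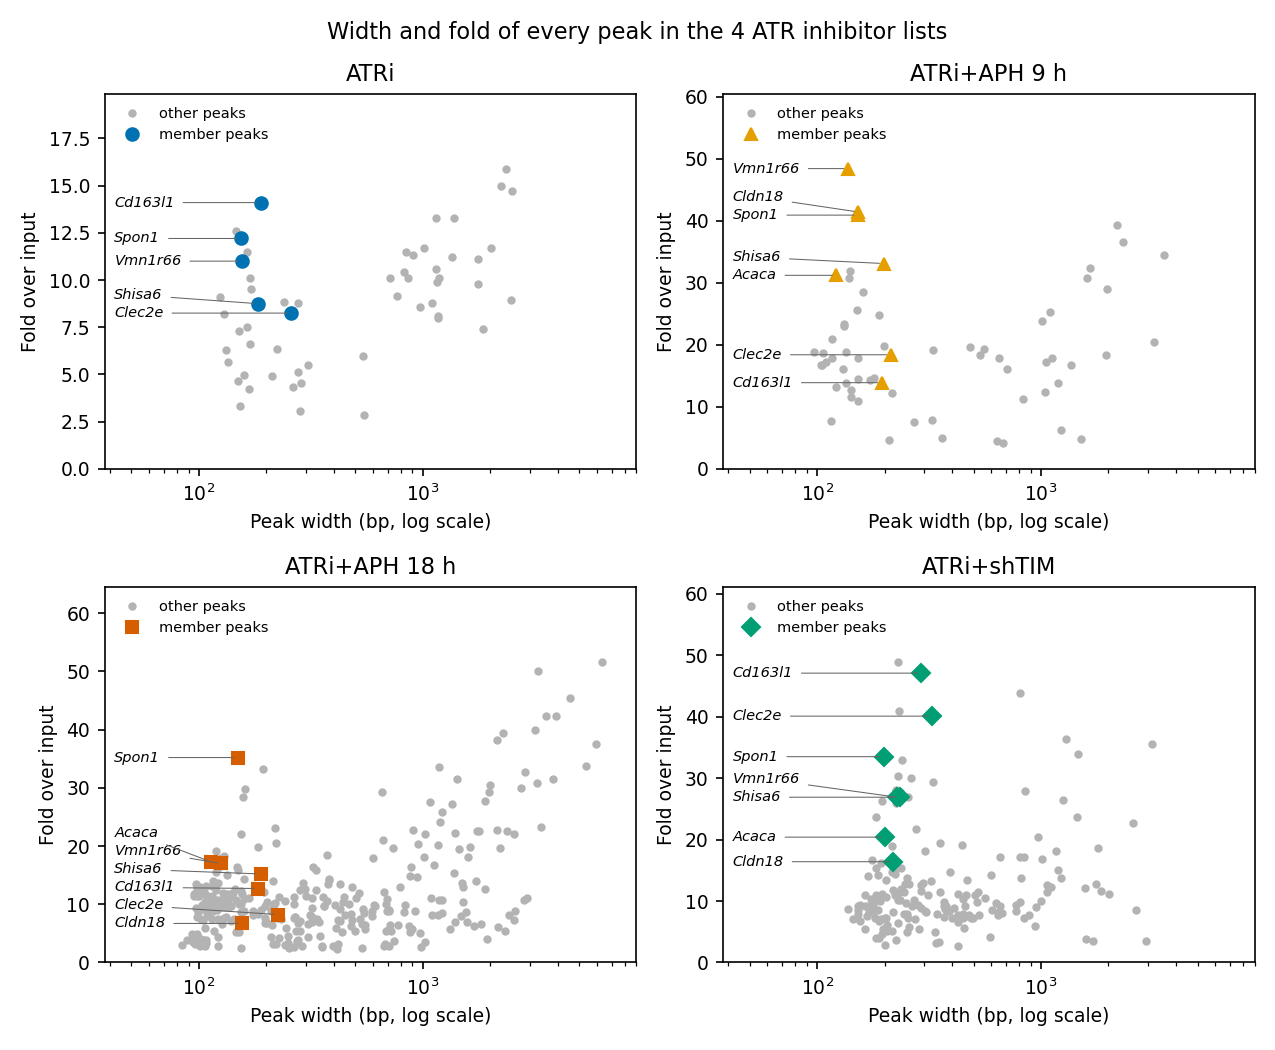
Width (x axis, bp, log scale) and fold over input (y axis) of every peak in the 4 ATR inhibitor lists, with the member peaks named and the others in grey. All member peaks lie between 113 and 327 bp, and in the ATRi+APH 18 h panel most of the highest folds belong to peaks over 1000 bp wide.

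Summits coincided between lists to within 31 bp. The distance from the lowest to the highest summit was 31 bp at Cd163l1, 25 bp at Acaca, 19 bp at Clec2e and at Shisa6, 12 bp at Vmn1r66, 10 bp at Spon1 and 2 bp at Cldn18, with a median of 19 bp. The 29 other loci of 3 or 4 lists that were no wider than 350 bp had a median of 14 bp and a range of 3 to 73 bp. Such agreement was thus common to narrow sites. Without the ATRi list the distance was 6 bp at Cd163l1, 1 bp at Clec2e, 2 bp at Shisa6, 4 bp at Spon1 and 7 bp at Vmn1r66. The ATRi summit had the highest coordinate of the 4 at Cd163l1, Clec2e, Spon1 and Shisa6 and the lowest at Vmn1r66, whereas at 12 other narrow loci of all 4 lists it was highest at 3, lowest at 6 and between the others at 3. All 26 summits fell within the stretch that the lists of their locus shared, which was 111 bp long at Acaca and 213 bp at Clec2e, the shortest and the longest.

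At each of the 7 loci the widest peak was that of ATRi+shTIM. This was common at loci no wider than 350 bp in both lists compared, members included. The locus was wider in ATRi+shTIM than in ATRi at 17 of 20 such loci (85%). It was wider than in ATRi+APH 9 h at 32 of 34 (94.1%) and than in ATRi+APH 18 h at 66 of 79 (83.5%). Of these loci 5, 7 and 7 were members, all of them wider in ATRi+shTIM. The summit stood between 32.6 and 68.7% of the way along the peak.

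**Figure D4:**
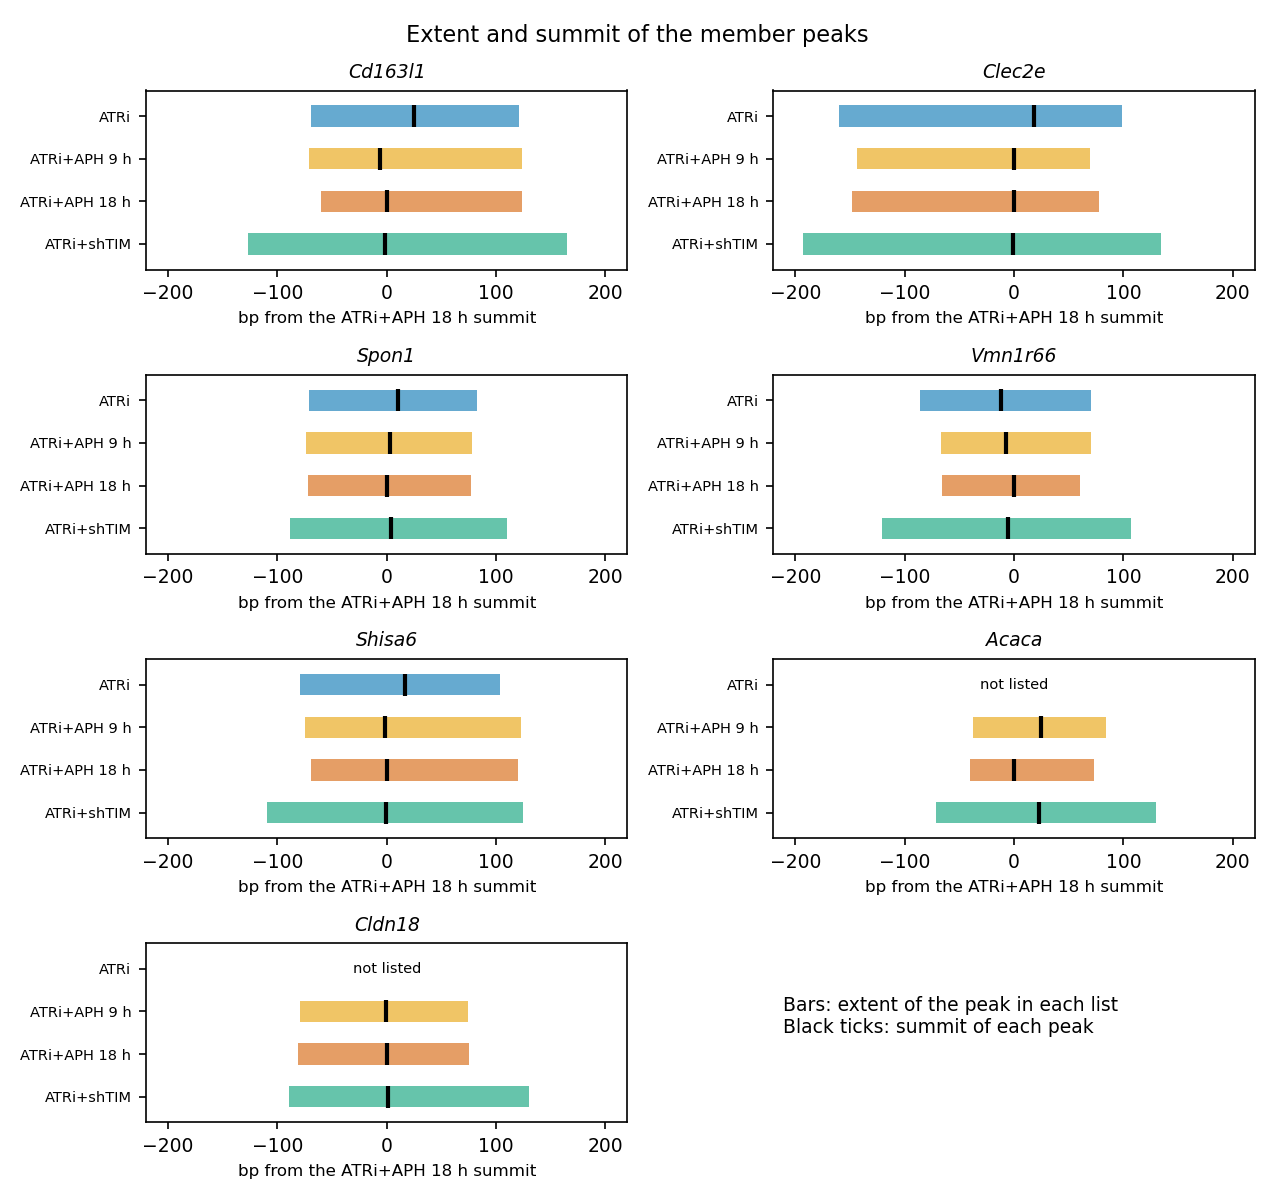
Extent (bars) and summit (black ticks) of the member peaks in each list, in bp from the ATRi+APH 18 h summit of the same locus (x axis). The bars overlap at every locus, the summits lie within 31 bp of one another, and the ATRi+shTIM bar is the widest at each locus.

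The member peaks stood alone, as did most peaks of each ATR inhibitor list except ATRi+APH 18 h. No other summit of the same list lay within 70 kb of any of the 26, beside 66.1% of all ATRi peaks, 75.4% of ATRi+APH 9 h peaks, 49.2% of ATRi+APH 18 h peaks and 59.6% of ATRi+shTIM peaks with no such neighbour. The 26 are 7 sites repeated across lists, so nothing is read from that difference. The nearest other summit of the same list was 1031400 bp away, at Cd163l1 in the ATRi+APH 18 h list. All 26 overlapped a peak of at least 1 other list, which was common. Over whole lists 96.4% of ATRi, 98.5% of ATRi+APH 9 h and 83.5% of ATRi+shTIM peaks overlapped the ATRi+APH 18 h list. Of all ATRi+APH 18 h peaks, 50.8% overlapped the ATRi+shTIM list. In the ATRi list all 5 overlapped all 3 other ATR inhibitor lists, as did 57.1% of its peaks. In the other lists the 5 of 7 that also overlapped the ATRi list overlapped all 3. The share of all peaks that overlapped all 3 other lists was 49.2% for ATRi+APH 9 h, 9.79% for ATRi+APH 18 h and 16.5% for ATRi+shTIM, and overlap with the ATRi list by itself was 53.8%, 16.5% and 23.9%.

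Peaks near relatives of the 7 genes were counted beside those near all genes. Over all 49205 annotated genes, 1255 (2.55%) had a summit of any list inside or within 70 kb, so most genes of any family would have none, and the counts below are a description. No other member of the Cd163 pair, the 11 Shisa genes, the Spon pair, the Acac pair or the 9 Clec2 genes had a summit inside or within 70 kb. Among 37 claudin genes the only other was Cldn34-ps on the X chromosome, with 5 peaks in the 4 ATR inhibitor lists and a highest fold of 31.5. Of 367 Vmn1r genes and pseudogenes, 6 had a summit that near. Vmn1r66, Vmn1r-ps47 and Vmn1r-ps48 shared the peaks described above. The pseudogenes Vmn1r261 (3.24-fold), Vmn1r-ps151 and Vmn1r-ps152 (4.29-fold, 1 shared peak) were near weaker ATRi+APH 18 h peaks. Genes of these families are similar in sequence, and how reads of similar copies were placed is not given in the sources used here.

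For 6 of the 7 loci, the other locus in exactly the same lists with the closest folds was found by the root mean square difference in log2 fold, among 24 candidates in every case. For both Cd163l1 and Clec2e this was a site 19816 bp from Ccdc66, a gene of a ciliary protein, at differences of 0.62 and 0.45 over 4 lists. Its folds were 7.5 with ATRi, 10.9 with ATRi+APH 9 h, 9.49 with ATRi+APH 18 h and 30.1 with ATRi+shTIM, and its widths were 137 to 263 bp. Spon1 was closest to a site 27008 bp from Klf15 (0.16), with folds of 11.1, 39.3, 42.4 and 34 in the same order of lists. The peaks with those folds were broad, at 1767, 2183, 3936 and 1455 bp. The narrowest peak joined into that site was 152 bp wide. Shisa6 was closest to a site 2692 bp from Tekt4, a gene of a sperm flagellum protein (0.24). Over 3 lists Acaca was closest to a site 13546 bp from Stx18, a gene of a membrane fusion protein (0.33). Cldn18 was closest to a site 7858 bp from Klf10, a gene of a zinc finger transcription factor (0.82), the least alike of these pairs.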

How the data were processed

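RPA32 ChIP-seq was made in 6 treatments. Per the submitters' processing notes the tools were MACS2 2.1.0, Picard 1.141, STAR 2.5.2a and bcl2fastq 2.17.1.14, with SAMtools 0.1.19 and build mm10; their settings and thresholds are not given in the sources used here. Per the file contents, the authors deposited 1 narrowPeak list per treatment, whose peak names record all ChIP libraries against all inputs. The deposited values are the fold enrichment (a ratio), the −log10 p and −log10 q, the summit and a score, which was 10 times the −log10 p for all 683 peaks and was not used.

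Here peaks were placed by summit against 49205 RefSeq gene bodies (21517 protein-coding) of GRCm38.p6, on chromosomes 1 to 19 and X (Python 3.11.15, pandas 2.3.3). All 7 genes matched that table and 4 matched the promoter table. Coordinates are 1-based, and overlap means at least 1 bp. Exons, introns and the sequence under the peaks were not analysed here. The steps were checked on simulated peaks. Members and lists were chosen with earlier results of these data known. Genes named are the members, genes holding or nearest a member peak, family genes with a peak, the nearest match of each locus (that of Vmn1r66 is not reported here) and the strongest other peak per list; predicted genes are not named. Other neighbours are named only where described. No test was made, because the lists pool replicates and the members were chosen on these values. Alternatives were other windows, thresholds, merging, overlap and ranking.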

Additional observations from a re-analysis of the deposited data

How the results depend on the processing

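With each list held to a −log10 p of at least 34 or a −log10 q of at least 10, with peaks placed by midpoint, or with peaks under 1 kb apart merged, the 7 loci held the same number of peaks, 26. These settings could not change that count. The lowest −log10 p and −log10 q of the 26 peaks were 41.6 and 36, above both thresholds. The nearest other summit of the same list was 1031400 bp away, and the nearest left-out peak lay 741 kb from a locus. A limit of 10 kb left 22, because the Spon1 site at 62.2 kb fell out, and peaks inside gene bodies numbered 18, without Spon1 and Vmn1r66. Ranking by −log10 p in place of fold put 8 member peaks in place of 11 among the 10 highest of their lists. The number of family genes with a peak, 13, was 8 within 10 kb and 6 inside gene bodies, since fewer summits qualify. The median width (189.5 to 192.5 bp), the sharing of all 26 peaks with another list (also with 50% coverage or within 1 kb) and the median summit distance of 19 bp moved little or not at all. Raising the narrow limit to 500 bp, chosen after seeing the data, made 423 in place of 363 peaks of the ATR inhibitor lists narrow. No paired analysis was possible because each deposited list pools the libraries of its treatment, and no replicate could be left out. Depth is unknown, so a locus missing from a list is not shown to lack signal.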

Other observations

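The folds of the 7 loci were ordered differently with ATRi+APH for 9 h than with ATRi+shTIM. From highest to lowest the 9 h order was Vmn1r66, Cldn18, Spon1, Shisa6, Acaca, Clec2e and Cd163l1, and the ATRi+shTIM order was Cd163l1, Clec2e, Spon1, Shisa6, Vmn1r66, Acaca and Cldn18. Spearman's rho between the 2 lists was -0.68 over the 7 loci, 0.42 over the 51 other loci in both lists and 0.16 over the 27 of these that were no wider than 350 bp in both. This pair of lists was the most extreme of the 6 computed. Over the member loci the other 5 pairs gave 0.18 for ATRi+APH 9 h with ATRi+APH 18 h and 0 for ATRi+APH 18 h with ATRi+shTIM (7 loci each), and -0.1, 0.4 and 0.3 for ATRi with ATRi+APH 9 h, ATRi+APH 18 h and ATRi+shTIM (5 loci each). Over the other loci the same 5 pairs gave 0.66, 0.5, 0.69, 0.76 and 0.55 in that order. The value over the member loci was thus the lower in all 6 pairs, and not only for ATRi+APH 9 h with ATRi+shTIM. All these values are descriptions across sites that share libraries, depth and antibody lots. The loci were picked for a high fold in one list or another, and the part of that choice in the order was not tested. The 2 lists differ in the second stress, the time (9 and 18 h) and the antibody lots, which cannot be told apart.

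By fold Cldn18 ranked 2 of 65 in the ATRi+APH 9 h list and 248 of 327 in the ATRi+APH 18 h list (3.08 and 75.8% from the top). Cd163l1 had a range as wide, from 1.06% with ATRi+shTIM to 73.8% with ATRi+APH 9 h. Ranked by −log10 p, Cldn18 stood at 4 of 65 and 131 of 327. On that measure Cd163l1 stood at 2 of 188 with ATRi+shTIM and 23 of 65 with ATRi+APH 9 h. Behind these ATRi+APH lists stood 2 ChIP libraries at 9 h and 3 at 18 h. The Cldn18 summit was at the same place to within 2 bp and its width was 153 and 156 bp in the 2 lists.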
